A study of Homo sapiens with 3 samples.

Results

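RH30 cells were examined for 42 sarcomere and contractile muscle genes: actins, troponins, tropomyosins, myosins, the large scaffold proteins and Z-disc and M-band proteins, together with desmin, dystrophin and the creatine kinases. The genes were taken as a list, and every probe set that names only 1 of them was read on all 3 arrays. Of the 42 genes, 39 had such a probe set, 57 probe sets in all, within a table that names 11963 genes. MYLPF, TPM3 and TNNT2 had none and are not analysed here. A gene was compared between arrays when the mean signal of a probe set over the 3 arrays reached 117, the median of all gene signals, and 16 of the 39 genes did. The other 23 genes are described by their signals, and are counted only where a setting without the filter is named.

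RH30 is an established human cell line from an alveolar rhabdomyosarcoma, a tumour of cells committed to skeletal muscle. The cells were untreated, or received 10 µM of an anti-MYCN PNA (peptide nucleic acid, a synthetic polymer of DNA bases on an amide backbone) or 10 µM of a mutated PNA described as inactive, and total RNA was taken at 12 hours. All were grown in medium with foetal bovine serum. There was 1 array per condition, so there is no replicate error and no test, and every difference is one between 2 single arrays of 1 cell line; nothing states whether the cultures were separate. The array called untreated has a title and a treatment text that say so and a source name that gives the mutated PNA, so each difference that involves 1 of the 2 controls rests on that title. Signals are listed throughout in the order untreated, mutated PNA and anti-MYCN PNA.

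In striated muscle, myosin of the thick filament pulls on actin of the thin filament, and the troponin complex on tropomyosin makes this depend on calcium. Most of these proteins come as isoforms from separate genes, and developing muscle uses cardiac and embryonic isoforms before adult slow or fast ones replace them. Creatine kinase regenerates the ATP that contraction uses. Rhabdomyosarcoma cells carry out this differentiation programme incompletely, and desmin and muscle actins are used to recognise the tumour.

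MYCN itself, the targeted gene, read 3313, 2804 and 2202 by its most intense probe set. The array of the anti-MYCN PNA stood apart in its controls: all 24 probe sets for bacterial poly-A spikes were lower there than on the other arrays, at a median ratio of 0.410 to untreated and 0.382 to mutated PNA, whereas mutated PNA over untreated gave 1.06. The 3′ to 5′ signal ratio of beta-actin, a sign of RNA integrity, was 2.11, 1.73 and 1.99. Of 9 markers of the muscle lineage of the line 7 passed the filter, among them the myogenic factor MYOD1 at 6715, 6266 and 7834. None of the 4 endothelial markers passed it, nor any of the 4 leukocyte markers with a probe set. The part of these array differences in the results below was not tested.

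Most of the measured contractile genes read higher with the anti-MYCN PNA than without treatment. Dystrophin was the main exception, by the only 1 of its 3 probe sets past the filter, and its dimmer probe sets did not share this. The mutated PNA array lay between the untreated and the anti-MYCN PNA array in most genes. It was the highest in KLHL41, 1.47 above untreated, and in TTN, TNNI1 and TPM1, and the lowest in MYBPC2 and NEB. Against untreated cells, 14 of the 16 genes were higher by any amount in anti-MYCN PNA cells, where 55.1% of all 6745 genes compared were. The median log2 difference of the 16 genes was 0.40, against 0.06 over all genes. At least 2-fold higher were CKB, CKM and TNNI2, 3 of 16, where 3.05% of all genes were, and at least 2-fold lower was DMD, 1 of 16, where 2.33% of all genes were. The untreated signal of TNNI2 was below the filter, which this gene passed through its higher arrays. The count of 3 became 2, CKB and CKM, with quantile normalization, and 1, CKB, with scaling by the median, which put TNNI2 at 0.81. For all genes, quantile normalization turned this split to 2.38% higher and 2.89% lower, and scaling by the median to 1.22% and 5.01%. In RNA from a whole culture, fewer cells that make a transcript and less of it in each cell cannot be told apart. Scaling by the median also moved the median of all genes to −0.14 and that of the 16 genes to 0.20.

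Against mutated PNA cells, the control with the same dose and time, 11 of the 16 genes were higher by any amount in anti-MYCN PNA cells, where 55.0% of all genes were, and the median log2 difference was 0.27 against 0.06. None of the 16 was 2-fold higher, where 2.67% of all genes were, and KLHL41 was 2-fold lower, where 2.33% of all genes were. In all genes quantile normalization gave 2.13% higher and 2.96% lower, and scaling by the median 1.23% and 4.73%, with the median of all genes at −0.12. The median of the 16 genes was then 0.12 and 0.094, and NEB and MYL6B lay below mutated PNA with scaling by the median. No count of 2-fold differences has a test here. Mutated PNA cells against untreated cells gave 13 of 16 genes higher by any amount, where 50.4% of all genes were, and a median of 0.20 against 0.00. KLHL41 was the 1 gene at least 2-fold higher, where 0.371% of all genes were, and no gene was 2-fold lower, where 0.371% were. The anti-MYCN PNA array was 2-fold from both controls in none of the 16 genes, where 1.13% of all genes were higher and 1.26% lower; quantile normalization gave 0.77% and 1.73%, and scaling by the median 0.252% and 3.10%, with DMD then 2-fold below both. At 1.5-fold it was above both in CKB and DES, where 8.23% of all genes were, and below both in DMD, where 7.41% were. The 3 comparisons share arrays, so their values are given side by side and are not independent of each other.

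**Figure D1:**
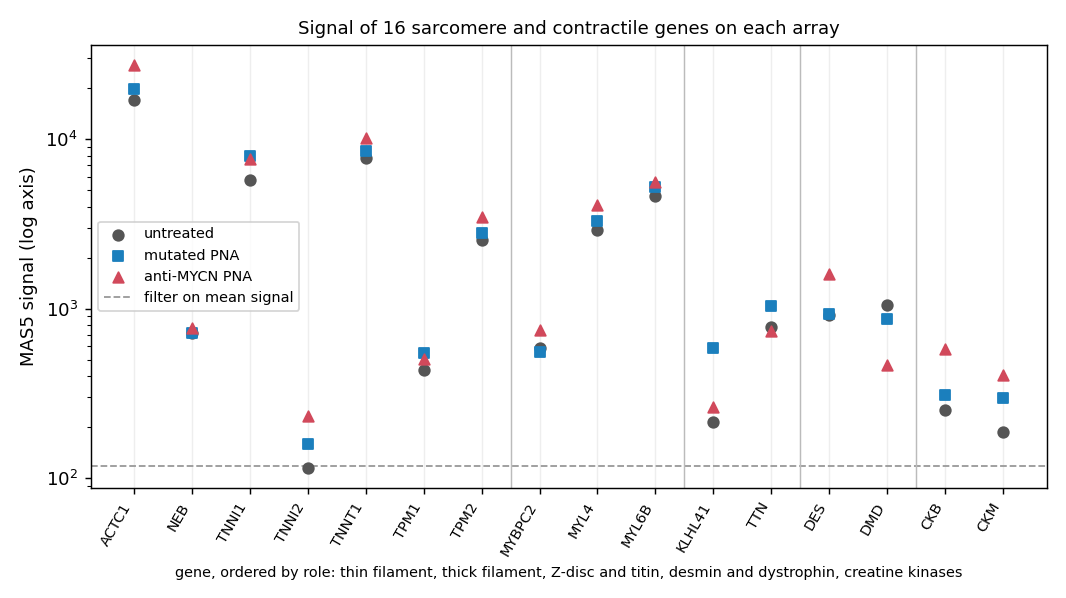
Signal of the representative probe set of each of the 16 genes past the filter, on a log axis, with 1 point for each of the 3 arrays and no error bars because there was 1 array per condition. CKB, CKM, DES and ACTC1 read highest on the anti-MYCN PNA array, DMD lowest on it, and KLHL41 highest on the mutated PNA array at 589.

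**Figure D2:**
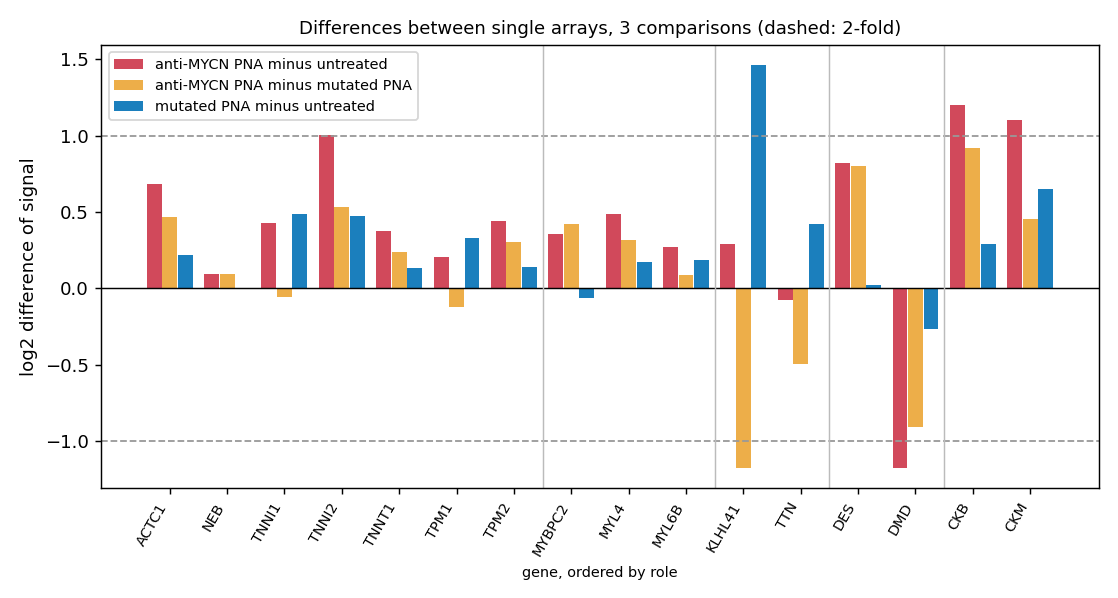
Log2 difference of signal for the 16 genes in the 3 comparisons, as bars from 0, with the 2-fold lines dashed and the genes ordered by role. Most bars of anti-MYCN PNA minus untreated are above 0, from 0.09 for NEB to 1.20 for CKB, TTN is at −0.07 and DMD at −1.18.

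The promoters of 4 of these genes are shown because they include 2 of the genes furthest above untreated on the anti-MYCN PNA array, CKM and CKB, the one furthest above untreated on the mutated PNA array, KLHL41, and the cardiac actin gene, ACTC1. They are the 250 bases before the gene start in RefSeq on GRCh38.p14, read 5′ to 3′ on the gene's strand. Capitals mark letters of an E-box (CANNTG, the site bound by MYOD1 and its relatives), of the MEF2 motif or of the CArG box bound by serum response factor.
CKM, chr19:45322876-45323125, minus strand: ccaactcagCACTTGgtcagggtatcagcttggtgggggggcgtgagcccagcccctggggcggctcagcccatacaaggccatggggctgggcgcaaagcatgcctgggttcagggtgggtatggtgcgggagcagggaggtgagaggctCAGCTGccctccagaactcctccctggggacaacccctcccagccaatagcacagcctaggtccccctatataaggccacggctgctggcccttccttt
CKB, chr14:103522831-103523080, minus strand: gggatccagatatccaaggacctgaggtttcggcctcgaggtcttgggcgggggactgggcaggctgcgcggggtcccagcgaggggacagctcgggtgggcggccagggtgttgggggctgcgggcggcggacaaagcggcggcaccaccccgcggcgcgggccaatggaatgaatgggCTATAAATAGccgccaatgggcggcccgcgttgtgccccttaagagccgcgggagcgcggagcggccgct
KLHL41, chr2:169509452-169509701, plus strand: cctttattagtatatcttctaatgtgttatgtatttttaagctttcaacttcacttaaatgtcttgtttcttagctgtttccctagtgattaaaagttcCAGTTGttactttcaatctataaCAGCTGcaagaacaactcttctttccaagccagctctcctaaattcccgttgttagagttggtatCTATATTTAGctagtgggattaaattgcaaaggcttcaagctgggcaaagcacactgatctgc
ACTC1, chr15:34795550-34795799, minus strand: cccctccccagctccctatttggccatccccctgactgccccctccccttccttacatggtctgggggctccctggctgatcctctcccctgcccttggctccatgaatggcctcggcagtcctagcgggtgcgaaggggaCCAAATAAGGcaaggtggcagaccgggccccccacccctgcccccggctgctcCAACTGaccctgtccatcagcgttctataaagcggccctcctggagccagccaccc
In CKM the E-boxes began 241 and 99 bases before the start, and the second is the muscle E-box CAGCTG. The CKB window had no E-box and a MEF2 match 70 bases before the start, whose letters include those of a TATA box, TATAAA. KLHL41 had E-boxes 151 and 128 bases before the start, the second again CAGCTG, and a MEF2 match 63 bases before it. The ACTC1 window, the most upstream of 3 listed for the gene, had a CArG box 109 and an E-box 56 bases before the start.

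Windows of 300 bases, 250 before and 50 after a listed start, were held for 26 of the 42 genes, 39 windows in all since a gene may have several starts and some of these overlap. All 4 motifs read the same on both strands as patterns. An E-box stood in 26 of the 39 windows, 66.7%, and in 68.7% of all 35116 windows. Its form CAGCTG stood in 28.2% against 17.9% of all windows, and every such match is also counted as an E-box. The MEF2 motif stood in 15.4% against 2.99%, in CKB, KLHL41, MYH1, MYH8, MYL1 and TTN. The CArG box stood in 15.4% against 1.29%, in ACTA1, ACTC1, DMD, LDB3 and MYOM1. Of these genes only ACTC1, CKB, DMD, KLHL41 and TTN passed the signal filter, and their differences took both directions. A match describes the letters and was not measured as a binding site.

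The thin filament genes past the filter were ACTC1, TNNT1, TNNI1, TNNI2, TPM1, TPM2 and NEB, 7 of 14. All 7 were above untreated on the anti-MYCN PNA array, where 55.1% of all genes were, with a median log2 difference of 0.43. NEB was below untreated when arrays were scaled by the median, at −0.11, and TPM2 was below it by its probe set without shared probes, at −0.09. ACTC1, cardiac alpha-actin, which developing skeletal muscle also makes, read 17091, 19864 and 27505, lowest untreated and highest with the anti-MYCN PNA. The log2 differences of the latter were 0.69 to untreated and 0.47 to mutated PNA, and mutated PNA was 0.22 above untreated. Other genes of this brightness also read higher on the anti-MYCN PNA array: the 50 genes nearest to ACTC1 in mean signal had a median log2 difference to untreated of 0.42 and a range from 0.23 to 0.77. With quantile normalization ACTC1 was at 0.24 to untreated and 0.04 to mutated PNA. ACTA1, the adult skeletal alpha-actin, whose protein is nearly identical to that of ACTC1, read 12.1, 50.1 and 27.4, under the filter.

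The troponin genes past the filter were TNNT1, TNNI1 and TNNI2. TNNT1 and TNNI1 were classed as the adult slow isoforms of the tropomyosin-binding and inhibitory subunits, and TNNI2 as the fast inhibitory isoform. TNNT1 read 7793, 8538.5 and 10098, with differences of 0.37 to untreated and 0.24 to mutated PNA for the anti-MYCN PNA array. TNNI1 read 5710.4, 7993 and 7681. Both PNA arrays were thus above untreated for TNNI1, mutated PNA by 0.49 and anti-MYCN PNA by 0.43, and they lay 0.06 apart from each other with anti-MYCN PNA the lower, at −0.06. The 50 genes nearest to TNNI1 in signal ranged from −0.23 to 0.33 between the controls. TNNI2 read 115, 159.6 and 231, so that anti-MYCN PNA over untreated lies at the 2-fold threshold itself. Its untreated signal was below the filter of 117, so it passed through its higher arrays, and it was under 2-fold with quantile normalization, at 0.87, and with a pseudocount in place of the floor, at 0.88. Genes near its signal scattered widely: the nearest 50 ranged from −1.11 to 1.29 for anti-MYCN PNA minus untreated.

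Tropomyosins lie along the actin filament and are made by most cells in other splice forms. TPM1, alpha-tropomyosin, had 4 probe sets past the filter, and the representative one read 434, 545 and 501. All 4 were above untreated on the anti-MYCN PNA array, by 0.19 to 0.59, and above untreated on the mutated PNA array, by 0.09 to 0.86. Against mutated PNA they disagreed, from −0.43 to 0.36. TPM2, beta-tropomyosin, had 2 probe sets past the filter that differed in direction against untreated. The more intense read 2552, 2803 and 3465, and the other, whose suffix marks no shared probes, read 1051, 822 and 991. Both put anti-MYCN PNA above mutated PNA, by 0.30 and 0.27. NEB, nebulin, the ruler along the thin filament, read 720.1, 718 and 768, differences of at most 0.09 in size, and in a dimmer probe set under the filter 74.6, 52.6 and 33.1.

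**Figure D3:**
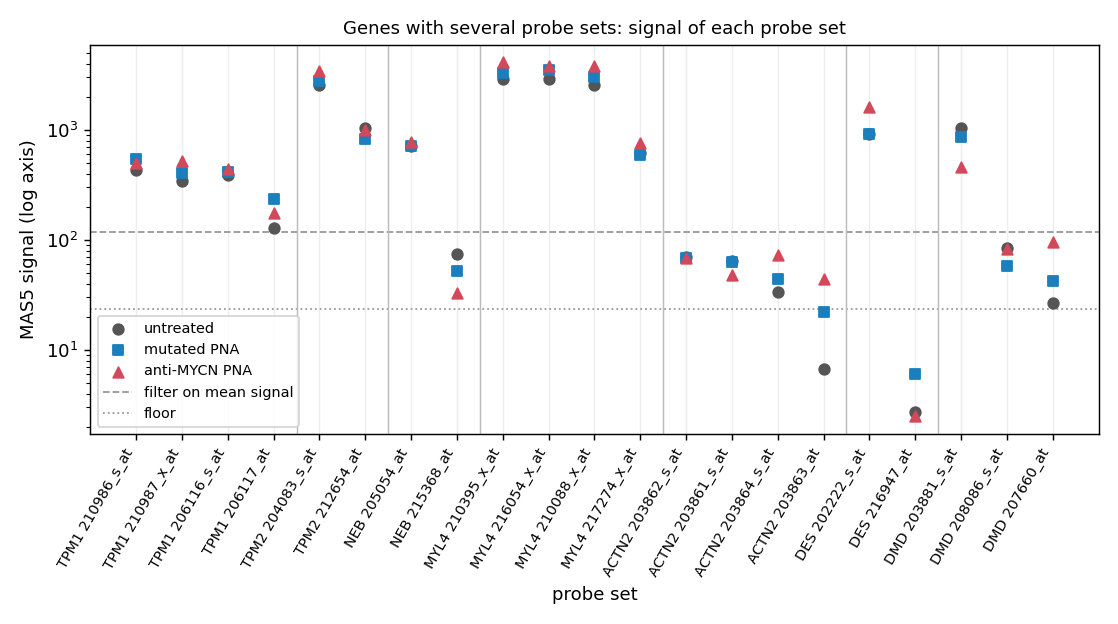
Signal of every probe set of the 7 genes named on the axis that have several, on a log axis with 1 point per array, the filter of 117 dashed and the floor of 23.4 dotted. The 4 MYL4 probe sets read highest on the anti-MYCN PNA array, whereas the 3 DMD probe sets differ in order and only 1 of them passes the filter.

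The thick filament genes past the filter were MYL4, MYL6B and MYBPC2, 3 of 14, and no myosin heavy chain gene was among them. All 3 read above both controls on the anti-MYCN PNA array, with MYL6B below mutated PNA when arrays were scaled by the median, at −0.09. How many of all genes were above both controls by any amount was not counted. MYL4, the embryonic and atrial essential light chain, read 2928, 3302 and 4112, with differences of 0.49 to untreated and 0.31 to mutated PNA. Its other 3 probe sets gave 0.57, 0.41 and 0.28 to untreated and 0.34, 0.14 and 0.36 to mutated PNA. All 4 carry the suffix _x_at, which marks probes shared with further transcripts, so its own level is uncertain. MYL6B, the light chain of slow muscle and of non-muscle cells, read 4606, 5238 and 5568, with differences of 0.27 and 0.09. MYBPC2, the fast isoform of myosin-binding protein C, read 582.5, 557 and 746, and its differences were 0.36 to untreated and 0.42 to mutated PNA.

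Of the Z-disc, titin and M-band group 2 of 9 genes passed the filter, and both were highest on the mutated PNA array. The share of all genes that were highest on that array was not counted. KLHL41, a kelch protein of muscle that takes part in myofibril assembly, read 213, 589 and 261, so that the mutated PNA stood apart from the other 2 arrays. It was 2.76-fold untreated, a log2 difference of 1.47, and anti-MYCN PNA was −1.18 from mutated PNA and 0.29 from untreated. The 50 genes nearest to KLHL41 in signal ranged from −1.73 to 0.56 between the controls and from −0.88 to 1.06 for anti-MYCN PNA minus mutated PNA. KLHL41 had 1 probe set, of the suffix _s_at, and it is the sole source of each 2-fold difference that the 16 genes show in the 2 comparisons with the mutated PNA. TTN, titin, the spring that runs from Z-disc to M-band, read 774, 1036 and 736. Its mutated PNA signal was 0.42 above untreated, and anti-MYCN PNA was −0.50 from mutated PNA and −0.07 from untreated.

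The gene of desmin, DES, the intermediate filament protein that links Z-discs, read 911, 923 and 1609. The controls differed by 0.02, and the anti-MYCN PNA array lay 0.82 above untreated and 0.80 above mutated PNA, a 1.76-fold and a 1.74-fold ratio. These lie inside the ranges of the 50 genes nearest in signal, −0.98 to 0.99 and −1.08 to 1.20. A second probe set of DES read 2.7, 6.0 and 2.5, under the floor of 23.4 on all 3 arrays. DMD encodes dystrophin, which ties the actin cytoskeleton to the membrane complex, and its representative probe set read 1045, 870 and 463. The anti-MYCN PNA signal was 44.3% of untreated, a log2 difference of −1.18, and it was −0.91 from mutated PNA. The 50 genes nearest to it in signal ranged from −0.92 to 1.37 against untreated and from −1.08 to 1.60 against mutated PNA. The other 2 DMD probe sets, under the filter, did not share this: one read 84.4, 58.4 and 83.3 and the other 26.8, 42.1 and 95.6. The RefSeq table lists 7 start sites for DMD, and which transcripts each probe set reads was not resolved here.

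On the anti-MYCN PNA array the creatine kinases CKB and CKM stood furthest above untreated among the 16 genes. CKB, the brain-type enzyme, which myoblasts make, read 252, 307 and 581, and anti-MYCN PNA was 2.30-fold untreated and 1.89-fold mutated PNA, with log2 differences of 1.20 and 0.92. CKM, the muscle-type enzyme, which appears with differentiation, read 188, 295 and 404. Its mutated PNA signal was 0.65 above untreated, and its anti-MYCN PNA signal 1.11 above untreated and 0.45 above mutated PNA. Both CKM and CKB thus read lowest untreated and highest with the anti-MYCN PNA, and the controls of CKB differed by 0.29. Against untreated, quantile normalization put CKB at 1.18 and CKM at 1.04, and scaling by the median put CKB at 1.01, at the 2-fold threshold, and CKM under it at 0.91. The 50 genes nearest in signal ranged from −1.69 to 1.04 for CKB and from −1.43 to 1.40 for CKM in that comparison. CKMT2, the sarcomeric mitochondrial enzyme, was dim, at 36.8, 19.0 and 15.7.

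**Figure D4:**
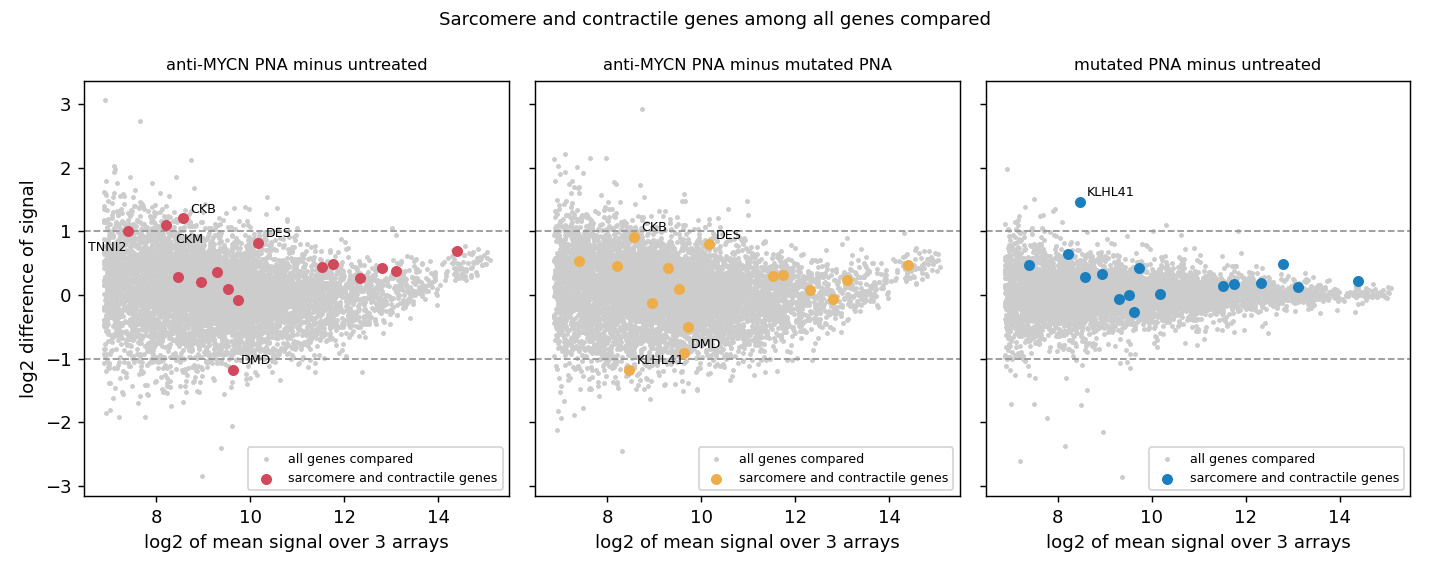
Log2 difference of signal against log2 of mean signal for all 6745 genes compared, in grey, and for the 16 sarcomere and contractile genes, in colour, in 3 panels for the 3 comparisons, with the 2-fold lines dashed. At the right of the first panel ACTC1 lies at 0.69 among genes that range from 0.23 to 0.77, and in the third panel KLHL41 at 1.47 lies above the 2-fold line.

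Grouped by isoform class, each class had few measured genes and its median is only a description of them. Genes were classed by their main site of adult or developmental expression, so a class does not exclude expression at other stages. The cardiac or embryonic class had 2 of 7 genes past the filter, ACTC1 and MYL4, and the anti-MYCN PNA array lay at a median of 0.59 to untreated and 0.39 to mutated PNA. With quantile normalization these medians were 0.40 and 0.20. The adult slow class had 3 of 9, TNNT1, TNNI1 and MYL6B, at 0.37 and 0.09, the latter −0.09 when arrays were scaled by the median. The adult fast class had 2 of 9, TNNI2 and MYBPC2, at 0.68 and 0.48. Of these 2 genes, TNNI2 had an untreated signal below the filter and passed it through its higher arrays. The filter at the 75th percentile leaves only MYBPC2 of these, at 0.36 to untreated and 0.42 to mutated PNA, with mutated PNA at −0.06 to untreated. Mutated PNA against untreated gave 0.20, 0.19 and 0.20 for the 3 classes in the same order. Against untreated, the cardiac or embryonic genes lay from 0.49 to 0.69, above the slow ones, from 0.27 to 0.43. The fast ones, from 0.36 to 1.00, overlapped both ranges. With quantile normalization ACTC1 was at 0.24, below the slow gene TNNT1 at 0.27. No difference between classes was tested. The 9 other genes past the filter, shared by fibre types or of another role, spanned −1.18 to 1.20.

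The 23 genes under the filter read between 2.2 and 148 over their 30 probe sets, and 8 of these probe sets were under the floor of 23.4 on all 3 arrays. The floor is the pooled 25th percentile of the signals, and signals below it have no order; a low signal does not show that a transcript was missing. All heavy chain genes on the list fell here. MYH3, the embryonic heavy chain, read 2.2, 4.0 and 6.2. MYH8, the perinatal one, read 16.7, 22.2 and 32.9 in its more intense probe set. MYH6 and MYH7, the cardiac and the slow and cardiac chain, read at most 15.4 and 18.6 on any array, and a probe set that names both read 3.0, 3.6 and 4.6. Of the fast adult chains MYH1 read 5.4, 4.2 and 3.7, and MYH2 read 13.8, 54.6 and 44.4.

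Among dim fast isoforms, TNNT3, the fast tropomyosin-binding subunit, read 19.3, 65.7 and 148, and only its anti-MYCN PNA signal was above 117. TNNC2, the fast calcium-binding subunit, read 57.9, 55.0 and 114. MYL1, the fast essential light chain, read 50.9, 67.4 and 76.0, and ACTN3, the fast alpha-actinin, 35.5, 27.3 and 34.8. Of these 4 genes TNNT3, TNNC2 and MYL1 had their highest signal with the anti-MYCN PNA. ACTN3 and the fast chain MYH2 did not, and MYH1 was under the floor on all 3 arrays. How many of all dim genes were highest there was not counted. Among slow and cardiac isoforms, TNNC1, the slow and cardiac calcium-binding subunit, read 37.1, 81.1 and 67.1. TNNI3, the cardiac inhibitory subunit, read 45.8, 43.7 and 67.0. MYL2 read 4.9, 47.3 and 10.4, MYL3 read 56.2, 12.1 and 15.1, and MYBPC1 read 11.3, 2.8 and 56.4, each with 1 array above the floor and the others under it.

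Of the scaffold and Z-disc genes under the filter, CSRP3, muscle LIM protein, read 30.9, 93.6 and 102, so both PNA arrays were above untreated. ACTN2, the main sarcomeric alpha-actinin, had 4 probe sets that differed in order, and the most intense read 69.4, 68.8 and 68.4. LDB3, a Z-disc protein, read 13.2, 61.7 and 10.4 in its most intense probe set. The M-band gene MYOM1 read 7.8, 38.4 and 27.4, and MYOM2 read 10.7, 10.7 and 34.3. TCAP, which caps titin at the Z-disc, was under the floor on all 3 arrays, at 11.4, 6.7 and 15.3. Over the 30 probe sets, 11 reached the floor without treatment, 16 with the mutated PNA and 17 with the anti-MYCN PNA. The share of all gene probe sets that reached the floor on each array was not counted. These counts therefore do not show a difference particular to the dim genes of the list. The median signal of all gene probe sets was 111, 112 and 127 on the same arrays.

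**Figure D5:**
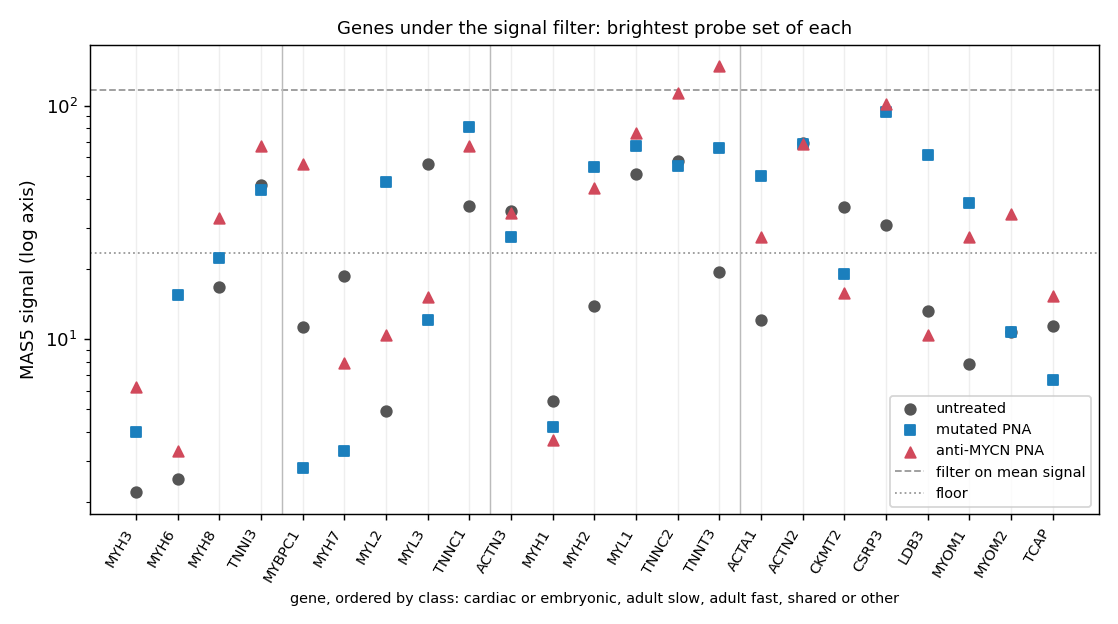
Signal of the most intense probe set of each of the 23 genes under the filter, on a log axis with 1 point per array, ordered by isoform class, with the filter of 117 dashed and the floor of 23.4 dotted. TNNT3 is the only gene with a point above the filter line, at 148, and the points of MYH1, MYH3, MYH6, MYH7 and TCAP are all under the floor.

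The related lists, 4 in all, were read beside these genes. Of 39 other sarcomere genes 7 passed the filter, none was 2-fold apart in any of the 3 comparisons, and the median of anti-MYCN PNA to untreated was 0.16 and to mutated PNA 0.19. The highest against both controls were PDLIM7 and PDLIM3, proteins of the Z-disc and actin filaments, at 295, 311 and 439 and at 2405, 2829.9 and 3243. Of 15 genes of the dystrophin complex 8 passed, with none 2-fold apart and medians of 0.25 and 0.06. Unlike DMD, SGCA, alpha-sarcoglycan, read higher on the anti-MYCN PNA array, at 273, 332 and 435, and UTRN, the dystrophin relative utrophin, read lower, at 156, 159.5 and 109. The difference from DMD was not tested.

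Of 18 regulators of muscle genes 12 passed, none 2-fold apart, with medians of 0.11 to untreated and 0.10 to mutated PNA. For mutated PNA against untreated the median was −0.08, and 3 of the 12 were above untreated, where 50.4% of all genes were. MYOG, myogenin, which drives terminal differentiation, read 748, 1238 and 1024. MEF2C, its partner on muscle promoters, read 1336, 2216 and 1474. Both were highest on the mutated PNA array. TCF12, an E protein that pairs with myogenic factors, read 2114, 1778 and 1186, and TEAD4, a TEA domain factor that acts on muscle genes, 759, 752 and 945. MYOG and MEF2C were chosen after their values were seen.

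The non-muscle and smooth muscle paralogues, 13 of 20 past the filter, had medians of 0.57 to untreated and 0.30 to mutated PNA, with quantile normalization 0.22 and 0.19. CNN2, a calponin, was 2-fold above both controls, at 644, 475 and 1319.7, and TPM4, a non-muscle tropomyosin, read 1189, 1404 and 2678. MYH9, a non-muscle myosin heavy chain, read 1039.5, 876 and 1722. Of these 13 genes 10 were above untreated, where 55.1% of all genes were, and 8 above mutated PNA, where 55.0% were. Marker genes of other cell types moved as follows: the 7 of 8 cardiomyocyte markers that had a probe set, 3 of them past the filter, summed to 566, 600.2 and 941, 5 smooth muscle markers to 366, 541 and 645, and 7 fibroblast markers to 599.5, 723 and 693. The sums were 800.1, 502 and 598 for 5 epithelial, 81.9, 81.1 and 156 for 4 leukocyte and 49.5, 56.3 and 103 for 4 endothelial markers, and no marker was at 0. The part of any of these in the values above was not tested.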

How the data were processed

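Total RNA of RH30 cells was hybridised to Affymetrix expression arrays, 1 per condition, after one-cycle biotin labelling. The deposited table gives 1 signal intensity for each probe set on a linear scale. The submitters' processing notes name MAS5 and GCOS, the scanner software's method, which scales each array by 1 factor: the 2% trimmed mean was 500.2 on all 3 arrays. Of 22215 gene probe sets, 19064 name 1 gene in a platform annotation of GEO, 1043 several and 2108 none; 19058 were matched to current symbols by Entrez identifier (RefSeq, GRCh38.p14).

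Arrays were rescaled to a common 2% trimmed mean over gene probe sets (a shift of at most 0.0022 in any log2 difference), given a floor at the pooled 25th percentile (23.4) and put on the log2 scale. Signals are printed as deposited. Probe sets with a mean of at least the pooled median (117) were kept, each gene by its most intense one: 6745 genes. With 1 array per condition, genes past 2-fold were counted and nothing was tested. All 42 list members were named, and from each related list those 2-fold from both controls and the 2 next by the smaller of both differences; MYOD1, MYOG and MEF2C were named after their values were seen. Members and lists were chosen with earlier results of these data known. The genes nearest in signal and the most intense probe set of dim genes were read after seeing the data. The procedure was tested on simulated data. Alternatives covered scaling, filter, floor, probe sets and fold. Scripts ran in Python 3.11.15 with pandas 2.3.3, numpy 2.4.6, matplotlib 3.10.9 and scipy 1.17.1. Precision is limited by the number of arrays.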

Additional observations from a re-analysis of the deposited data

Results flagged for a closer look

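A probe set outside the comparisons, because it names SUPT20H as well as DES, read 836 untreated, 774 with the mutated PNA and 991 with the anti-MYCN PNA, the highest of the 3 arrays. Its probes also match other transcripts, so it is not assigned to desmin. No group has enough arrays to look for an array that stands apart.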

How the results depend on the processing

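Of 399 values recomputed for single genes, 6 changed sign, in 5 gene and comparison pairs of MYL6B, NEB and TPM2, and none of these was past 2-fold. For anti-MYCN PNA against untreated, the median of the genes was 0.40, and 0.32 with quantile normalization, 0.20 with median scaling, 0.36 with no filter, 0.37 with a filter at the 75th percentile, 0.36 with a gene's probe sets summarised by their median and 0.39 with only those lacking the suffixes _x_at and _s_at. For anti-MYCN PNA against mutated PNA it was 0.27, and in the same order 0.12, 0.094, 0.086, 0.24, 0.26 and 0.18. For mutated PNA against untreated it was 0.20, and 0.18 with median scaling, 0.14 with no filter, 0.14 with the stricter filter, 0.21 with the median of probe sets and 0.25 without those suffixes. The count 2-fold above untreated on the anti-MYCN PNA array was 3, with median scaling 1, no filter 6, the stricter filter 0, 1.5-fold 5 and 3-fold 0; the count below it was 1, with no filter 2, without such probe sets 0 and at 3-fold 0. Above mutated PNA it was 0, with no filter 3 and at 1.5-fold 2; below it 1, with median scaling 2, no filter 3, the stricter filter 0, without such probe sets 0, 1.5-fold 2 and 3-fold 0. For mutated PNA above untreated the count was 1, with no filter 8, the stricter filter 0, without such probe sets 0, 1.5-fold 2 and 3-fold 0; below untreated it was 0, and 1 with no filter. Above both controls it was 0, with no filter 2 and at 1.5-fold 2; below both 0, with median scaling 1 and at 1.5-fold 1. Without the filter all 39 genes were counted, dim ones included, and the shares of all 11963 genes rose as well. At least 2-fold higher were then 8.82% against untreated, 7.93% against mutated PNA, 2.73% between the controls and 5.18% against both. At least 2-fold lower were 3.11%, 3.66%, 1.84% and 1.52% in that order. With the stricter filter the shares of all genes in that order were 0.819%, 0.846%, 0.0819% and 0.355% higher. They were 1.31%, 1.69%, 0.109% and 0.655% lower. With only probe sets lacking the suffixes they were 2.85%, 2.4%, 0.3% and 0.824% higher. The shares lower were then 2.95%, 2.92%, 0.35% and 1.6%. At 1.5-fold the share of all genes was counted only against both controls, 8.23% higher and 7.41% lower. At 3-fold it was not counted. The other 1.5-fold counts and the 3-fold counts therefore do not show a difference particular to the list. Fewer genes pass the stricter filter, 11 of the 39, and fewer have probe sets without these suffixes, 10. For the other settings the cause was not tested. No paired analysis was possible because each condition had 1 array, and for the same reason no array could be left out. Array number and low signal limit the precision, most for genes near the filter.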
